A study of Homo sapiens with 4 samples.

Results

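Among the accessible regions of HK1 cells, 2837 had an ATAC-seq peak in untreated wild-type (WT) cells, in WT cells treated with interferon-γ (WT-IFN-γ) and in untreated FLI1-knockout cells (sgFLI1), but no peak in FLI1-knockout cells treated with interferon-γ (sgFLI1-IFN-γ). They are called the missing regions here. The peaks of the 4 lists had been merged wherever they overlapped by at least 1 bp on chromosomes 1 to 22 and X, which gave 93211 merged regions. Of these, 40876 had a peak in all 4 lists (common regions). The missing regions were therefore 6.49% (95% Wilson interval 6.26 to 6.73%) of the 43713 regions that had a peak in the other 3 lists. They were selected on the presence and absence of peaks, so that their lack of a peak in sgFLI1-IFN-γ, and anything computed from it, is a description and no finding.

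HK1 is an established line of nasopharyngeal carcinoma, an epithelial tumour. ATAC-seq uses a transposase that cuts and tags DNA not covered by nucleosomes, and its peaks mark promoters, enhancers and insulator sites. All 4 groups were HK1 cells, either WT or carrying a knockout of FLI1, an ETS family transcription factor, made with a guide RNA, and either left as controls or given IFN-γ, a T cell cytokine that induces antigen presentation genes and IDO1. With 1 library in each group there were no replicates, so groups are described side by side without a test. Whether the knockout cells were 1 clone or a pool is not given in the labels. Intervals cover counting error only, and they treat regions as independent although regions are not replicates of a condition. A peak at a FLI1 start site was listed in WT (12 tags at the summit) and WT-IFN-γ (22 tags) but in neither sgFLI1 list, which does not check the cut itself. Of 7 epithelial marker genes, 3 (KRT8, KRT18 and EPCAM) had a promoter peak in every list, and none of the T cell, B cell and PTPRC markers had one in any list. Promoter peaks were also listed at CD68, CSF1R, COL1A1 and COL1A2 in all 4 libraries, and at the endothelial gene CDH5 in WT and sgFLI1-IFN-γ but not in the other 2.

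The sequences below are examples from the missing regions. Each holds the sgFLI1 summit and 50 bases on each side of it, on the GRCh38 plus strand, and capitals mark a match, within the bases shown, to one of the motifs searched, namely AP-1 (TGANTCA) near GTPBP1 and OTOA and NF-κB near TYW1B. The KPNB1 sequence is shown as a promoter of high signal. The others are among the regions that stood furthest above the level needed for a peak call in sgFLI1-IFN-γ, a ranking chosen after the values were seen. TBC1D26, which ranked above GTPBP1 and OTOA, is not shown. Regions high in this ranking are not typical of the missing regions, since repeated sequence was more frequent among them, as described below.
KPNB1 promoter, chr17:47650626-47650726: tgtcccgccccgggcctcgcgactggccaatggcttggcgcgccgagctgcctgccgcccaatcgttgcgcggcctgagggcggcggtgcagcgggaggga
SPATA31A1, chr9:39464532-39464632: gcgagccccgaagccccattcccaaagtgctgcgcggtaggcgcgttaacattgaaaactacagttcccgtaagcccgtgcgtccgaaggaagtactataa
ZNF658 promoter, chr9:66900608-66900708: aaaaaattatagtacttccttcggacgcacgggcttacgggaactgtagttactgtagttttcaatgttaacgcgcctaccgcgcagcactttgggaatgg
CYSLTR2, chr13:48769243-48769343: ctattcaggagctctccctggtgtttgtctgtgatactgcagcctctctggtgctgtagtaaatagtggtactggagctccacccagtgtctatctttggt
TYW1B intron, chr7:72682913-72683013: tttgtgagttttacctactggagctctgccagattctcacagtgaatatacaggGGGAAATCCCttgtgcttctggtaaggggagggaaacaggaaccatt
GTPBP1 intron, chr22:38718590-38718690: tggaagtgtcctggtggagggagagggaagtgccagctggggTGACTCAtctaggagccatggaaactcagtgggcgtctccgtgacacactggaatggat
OTOA, chr16:21769480-21769580: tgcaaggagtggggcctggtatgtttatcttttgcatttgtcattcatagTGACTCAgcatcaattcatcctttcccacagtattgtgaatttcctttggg

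The sequences near SPATA31A1 and ZNF658 lie on either side of the chromosome 9 centromere, and the reverse strand of one aligned to the other with 86 identical bases in 95 alignment columns (90.5% identity, the other 9 columns being gaps). They are thus near copies of each other. OTOA and TYW1B also lie in parts of the genome with known near-identical copies.

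The missing regions were weak wherever they were listed. Signal is given as the summit pileup, the whole number of tags over the highest point of a peak. The untreated WT library had a median of 19 tags (range 8 to 122), the WT-IFN-γ library one of 20 (8 to 131) and the sgFLI1 library one of 15 (7 to 91). In the common regions the median pileup was 46, 50 and 42 tags in the same libraries, and 38 tags in sgFLI1-IFN-γ. A summit −log10 q above the median −log10 q of its own list was seen in 17.7% of the missing regions in WT, 23.3% in WT-IFN-γ and 10.7% in sgFLI1. In the common regions the shares were 69%, 73.9% and 72.3%. The lowest pileup listed at all was 7 tags in sgFLI1-IFN-γ and 8 tags in WT. The 2 pileup distributions overlapped over most of their range, and the missing regions were shifted to the low end in each of the 3 libraries.

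**Figure D1:**
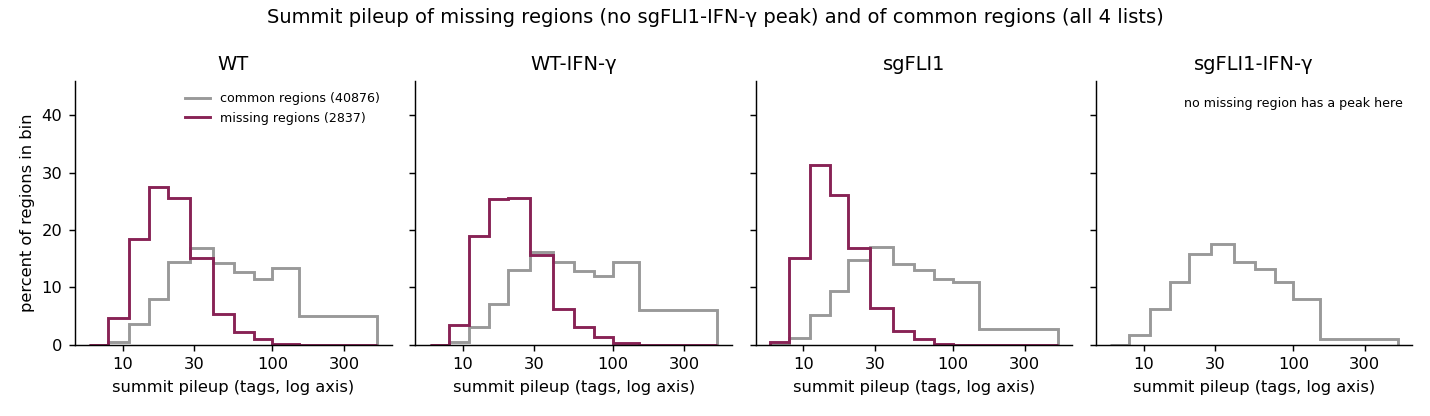
Summit pileup in tags (log axis) against the percent of regions in each bin, 1 panel per library, for the missing regions (purple) and the common regions (grey). The missing regions peak below 30 tags in the 3 libraries that list them, with medians of 19, 20 and 15, and have no peak in sgFLI1-IFN-γ.

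Libraries differed in depth, so pileups were divided by the tag density of the library (8.04 and 8.84 tags per kb of genome in the untreated and treated WT libraries, 6.93 and 6.86 in the untreated and treated sgFLI1 libraries). This scaled pileup, lowest over the 3 lists that held the region, had a median of 1.81 in the missing regions (quartiles 1.44 and 2.36, highest 13.1) and of 4.72 in the common regions (quartiles 2.61 and 9.05). Below 1.5, 906 of 2798 regions were missing (32.4%, 95% interval 30.7 to 34.1%). The share was 19.7% from 1.5 to 2, 9.09% from 2 to 3 and 3.07% from 3 to 5. At 5 or more it was 0.505% (98 of 19398 regions, 0.415 to 0.615%). The same fall was seen for the regions missing only in WT (from 32.5 to 0.741%), only in WT-IFN-γ (24.7 to 0.294%) and only in sgFLI1 (25.7 to 0.365%). In all, 2679 regions were missing only in WT (6.15%), 1723 only in WT-IFN-γ (4.04%, the deepest library) and 2270 only in sgFLI1 (5.26%).

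**Figure D2:**
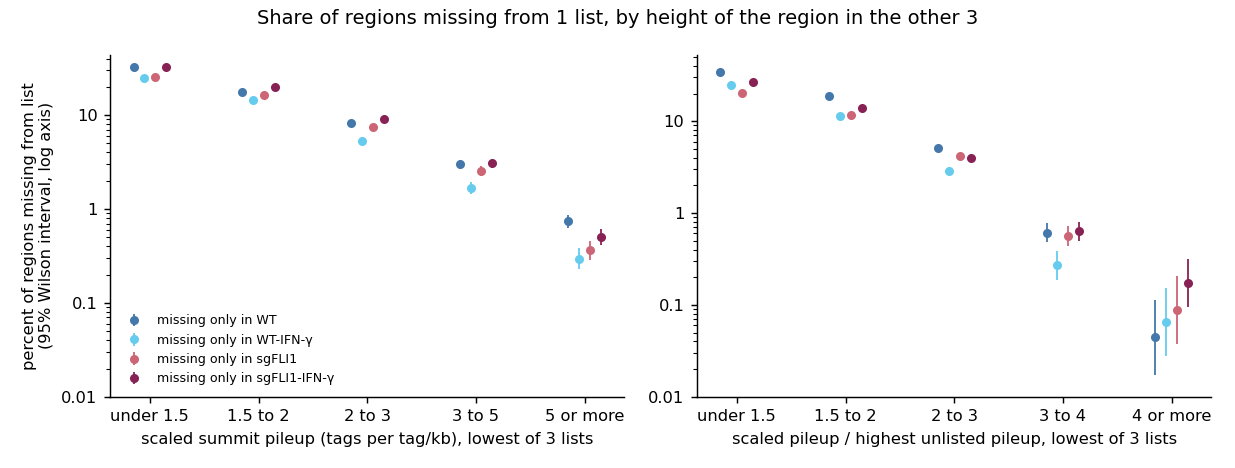
Percent of regions missing from 1 list (log axis, 95% Wilson intervals) by the height of the region in the other 3 lists, as scaled pileup (left) and as scaled pileup over the highest pileup that would have stayed unlisted (right). On the right, the limit was computed from the background of each of the other 3 lists, and the lowest ratio was used. All 4 libraries fall together, and sgFLI1-IFN-γ falls from 32.4 to 0.505% on the left and from 26.7 to 0.173% on the right.

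The lack of a peak gives an upper limit for the signal in sgFLI1-IFN-γ and not a value of 0. For each missing region, the local background of the sgFLI1 peak was scaled to the sgFLI1-IFN-γ library, and the largest pileup that would have stayed below the lowest −log10 p of that list was computed. This limit had a median of 7 tags (range 6 to 59). The sgFLI1 pileup, scaled to the sgFLI1-IFN-γ background, exceeded the limit in all 2837 regions, by a median of 1.95 times (highest 7.10), as the rule asks for a listed sgFLI1 peak. It was more than 2 times the limit in 1300 regions (45.8%) and more than 3 times in 264 (9.31%). Depth in sgFLI1 was 1.01 times that of the treated knockout library, and 2814 of the missing regions (99.2%) would have passed the p limit with their scaled sgFLI1 pileup and background. The others had a scaled pileup less than 1 tag above the limit, which falls short of the next whole tag. The rule asks for a listed sgFLI1 peak and the depths were nearly equal, so the count of 2814 was close to fixed in advance. It cannot tell what part depth had in the missing peaks. Of the common regions, 40858 of 40876 passed. With the background raised to 1.5 times, 2414 (85.1%) would have passed. MACS2 also needs a run of bases as long as the tag extension, so a summit above the limit is not enough for a peak.

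The common regions show how the sgFLI1-IFN-γ library behaved where it could be measured. Its scaled pileup differed from that of sgFLI1 by a median of -0.14 on the log2 scale (quartiles -0.32 and 0.06), and WT-IFN-γ differed from WT by -0.07. Common regions within 20 kb of a missing region (2654 regions) had a median sgFLI1-IFN-γ minus sgFLI1 difference of -0.14, and those further away (38222 regions) also -0.14. Of the near ones 67.5% were lower in sgFLI1-IFN-γ, and of the others 68.0%. Within 5 kb the median was -0.10 in 562 regions. The order depended on height, since near regions with a scaled pileup under 1.5 had a median of -0.06 (84 regions within 20 kb) against 0.02 in those further away, and those from 1.5 to 2 had -0.12 (166 regions) against -0.07, while from 2 upward the near regions were not lower. Within 5 kb the 14 and 28 regions of the 2 weakest classes had medians of -0.17 and -0.24. The nearest sgFLI1-IFN-γ peak lay a median of 11445 bp away, and within 500 bp for 57 missing regions (2.01%).

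Without treatment, the missing regions were somewhat lower in the knockout than in WT, relative to common regions. The sgFLI1 minus WT difference of scaled pileups had a median of -0.13 on the log2 scale (quartiles -0.50 and 0.22), against 0.05 (quartiles -0.23 and 0.33) in common regions. The scaled pileup was at least 2 times as high in WT as in sgFLI1 in 180 missing regions (6.34%) and the reverse in 39 (1.37%). In common regions the counts ran the other way, with 684 (1.67%) higher in WT and 1630 (3.99%) higher in sgFLI1. Since the sgFLI1 and WT lists took part in the choice of regions, these values are descriptions. In WT cells, 57 missing regions (2.01%) were at least 2 times as high with IFN-γ as without and 47 (1.66%) at least 2 times as low, with a median difference of -0.14 against -0.07 in common regions. In common regions 1.56% were at least 2 times as high and 0.756% at least 2 times as low.

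**Figure D3:**
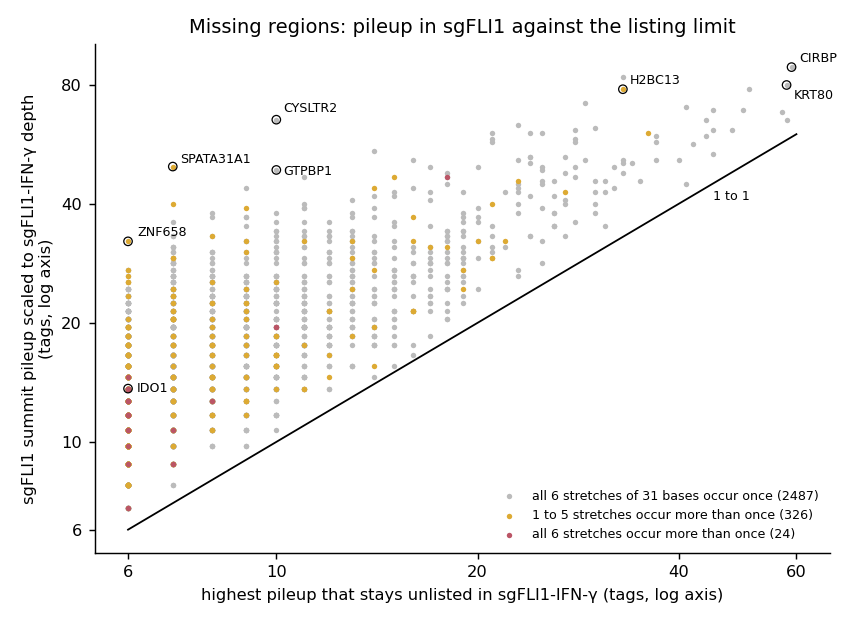
For each missing region, the sgFLI1 summit pileup scaled to sgFLI1-IFN-γ against the highest pileup that stays unlisted there (tags, both axes log), with the line of equal values. All points lie above the line, most at a limit of 6 to 10 tags. Colours give how many of 6 stretches of 31 bases around the summit occur more than once in GRCh38, and circles mark named regions.

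The tallest missing regions stood on high local background. The 98 with a scaled pileup of 5 or more had a median local background of 14.1 tags in sgFLI1, against 1.94 tags over all missing regions. In common regions of 5 or more it was 9.33 tags. The median fold enrichment was 3.44 in the 98 and 7.85 in those common regions. The class has no upper bound, and scaled pileup reached 13.1 in missing and 50.5 in common regions, so the heights were not matched. The tallest lay at chr19:1262010-1262517, 803 bp after an annotated start of CIRBP, a gene for a cold-inducible RNA-binding protein. It had 119 tags in WT, 131 in WT-IFN-γ and 91 in sgFLI1 on a background of 39.5 tags, and up to 59 tags would have stayed unlisted. A region at chr12:52152015-52152333, whose nearest start was that of the keratin gene KRT80, had 108, 98 and 82 tags with a limit of 58. Those limits rest on the sgFLI1 background. With limits from the background of each list in turn, the lowest scaled pileup over limit was 1.09 at CIRBP and 1.20 at KRT80. A region in intron 2 of the canonical transcript of BCL2L1, which encodes the survival protein BCL-xL, had 99, 86 and 80 tags with a limit of 51. One in intron 2 of ALDH3B1, an aldehyde dehydrogenase gene, had 89, 88 and 67 with a limit of 44, and one in intron 1 of ATOSB had 87, 87 and 71 with a limit of 50. Further above their limits were a region at chr6:27795697-27796125 in the histone gene area of H2BC13 (122, 106 and 80 tags, limit 33) and one at chr6:3160016-3160495, 2784 bp upstream of the tubulin gene TUBB2A (93, 95 and 74 tags, limit 29).

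To measure distance above the limit, the limit was taken from the background of each list in turn. On that measure, 10 missing regions had scaled pileups of at least 4 times the limit in all 3 lists. They were 0.173% of the 5792 regions of that height (95% interval 0.0938 to 0.318%). The limits given for single regions rest on the sgFLI1 background. The region at chr9:39464300-39464736, between genes with the start of SPATA31A1 as the nearest, had 69 tags in WT (exact Poisson 95% interval 53.7 to 87.3), 59 in WT-IFN-γ (44.9 to 76.1) and 51 in sgFLI1 (37.97 to 67.1), while at most 7 would have stayed unlisted. Its copy at the ZNF658 promoter, chr9:66900565-66900953, had 57, 51 and 33 tags with a limit of 6. The region at chr13:48769037-48769921, between genes with CYSLTR2, a leukotriene receptor gene, as the nearest start, had 59, 64 and 67 tags with a limit of 10. The region in intron 4 of GTPBP1, chr22:38717976-38719063, had 50, 52 and 50 tags with a limit of 10. TYW1B (47, 35 and 41 tags, limit 7), TBC1D26 (40, 34 and 28, limit 6), OTOA (53, 62 and 26, limit 6) and RMI1 (52, 61 and 34, limit 8) followed. The sgFLI1 pileup was the lowest of the 3 at SPATA31A1, ZNF658, TBC1D26, OTOA and RMI1, and the highest at CYSLTR2. Scaled by tag density, it was still the lowest at ZNF658, OTOA and RMI1 but not at SPATA31A1 and TBC1D26.

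Some of these regions lay in repeated sequence. For every region, 6 abutting stretches of 31 bases around the summit were counted in GRCh38 on both strands. At least 1 stretch occurred more than once in 6 of the 10 regions (SPATA31A1, ZNF658, TYW1B, TBC1D26, OTOA and RMI1), in 350 of all 2837 missing regions (12.3%) and in 8.31% of common regions. CYSLTR2, GTPBP1, TGFBR3 and GAS2L3 were the other 4, with all stretches occurring once. All 6 stretches occurred more than once in 24 missing regions (0.846%), none of them among these 10 or among the 67 regions at 3 to 4 times the limit, against 0.276% of common regions (difference 0.57 percentage points, 95% Newcombe interval 0.287 to 0.982) and 0.187 to 0.352% of the regions missing only in one of the other lists. Of regions with 6 repeated stretches, 24 of 137 were missing in sgFLI1-IFN-γ (17.5%, 12.1 to 24.7%), against 6.22% of regions with none. Of these 24, 12 lay on X, and 8 of those in a single bin of 1 Mb shared with Y, described below. The intervals treat such clustered regions as independent. Alignments of low mapping quality had been removed upstream, so tags in such copies depend on small sequence differences. Its part in the missing peaks was not tested.

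The missing regions lay mostly away from promoters. A protein-coding start was within 1 kb of the summit in 191 of them (6.73%, 95% interval 5.87 to 7.71%), against 28.5% of common regions (difference -21.8 percentage points, -22.8 to -20.7). A further 1071 (37.8%) lay in introns, 73 (2.57%) in exons and 1502 (52.9%) between genes. The distance to the nearest start had a median of 29776 bp, against 12816 bp in common regions. The promoter share differed little from that of regions missing only in sgFLI1 (6.74%, difference -0.01, -1.41 to 1.37) or only in WT (5.71%, difference 1.02, -0.259 to 2.3). Within equal scaled pileup it also differed little from common regions, at 4.53 against 4.70% below 1.5 and 6.69 against 6.63% from 2 to 3. Only at 5 or more did it differ, at 23.5 against 50.6% (difference -27.1, -34.4 to -17.8). That class has no upper bound, and scaled pileup reached 13.1 in missing and 50.5 in common regions, so the heights in it were not equal.

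The 191 promoter regions belonged to 191 genes, of which 79 had another promoter region that was common to all 4 lists. KPNB1, encoding the nuclear import receptor importin-β, had a missing region 318 bp after a start with 89 tags in WT, 86 in WT-IFN-γ and 72 in sgFLI1 (limit 41). PTCH1, encoding the Hedgehog receptor, had 104, 106 and 58 tags 2 bp from a start (limit 42). LRFN4 had 81, 73 and 63 tags in exon 1 (limit 45). STAG2, a cohesin subunit gene, had 71, 69 and 64 tags 8 bp from a start (limit 30). The nearest sgFLI1-IFN-γ peak was 337 bp away at KPNB1, 370 bp at PTCH1, 712 bp at LRFN4, 816 bp at STAG2, 462 bp at CIRBP and 1169 bp at KRT15.

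GC content, taken over 100 bases on each side of the summit, had a median of 48.3% in the missing regions (quartiles 42.3 and 55.2%) and of 54.7% in common regions. Of eligible regions with GC under 40%, 13% were missing, and of those with 60% or more, 2.53%. Within equal scaled pileup this slope was much smaller, from 34.6 to 30.0% below 1.5 and from 8.99 to 11% from 2 to 3. Regions missing only in sgFLI1 had a steeper slope (14.9 to 1.49%) and those missing only in WT a flatter one at the low end (7.57% under 40% GC and 9.44% from 40 to 50%).

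Motif content differed between the regions missing from different libraries. A match to the AP-1 motif TGANTCA, the site of FOS and JUN dimers, was found on either strand within 100 bp of the summit in 696 missing regions (24.5%), in 23.9% of common regions and in 22.5% of all merged regions. Of regions missing only in WT 35.6% held it (difference -11.1 percentage points, 95% interval -13.5 to -8.66), of those missing only in sgFLI1 20.5% (4, 1.7 to 6.29), and of those missing only in WT-IFN-γ 26.0% (-1.47, -4.10 to 1.12). Away from promoters 25.4% of missing and 31.3% of common regions held it (difference -5.95, -7.66 to -4.18). In the 4 classes of scaled pileup below 5, the difference from common regions lay between -5.78 and -3.97 with intervals without 0.

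CTCF, the insulator protein, showed the opposite order. Its motif was in 287 missing regions (10.1%), in 15.2% of those missing only in sgFLI1 (difference -5.13, -6.99 to -3.29), in 5.34% of those missing only in WT (4.78, 3.38 to 6.18) in 8.47% of common regions and in 6.40% of all merged regions. Away from promoters CTCF was in 10.7% of missing and 11.1% of common regions (difference -0.487, -1.66 to 0.797). The RUNX motif TGTGGTT was in 4.27% of missing regions, about as in those missing only in sgFLI1 (4.14%), in 4.90% of common and 5.34% of all merged regions, but in 8.55% of those missing only in WT (difference -4.28, -5.59 to -3) and in 6.73% of those missing only in WT-IFN-γ (-2.47, -3.92 to -1.11). Its difference from common regions was -2.87 (-4.61 to -0.95) below 1.5 in scaled pileup and -3.19 (-4.68 to -1.41) from 1.5 to 2. In the higher classes the intervals held 0. Away from promoters 4.31% of missing and 6.05% of common regions held it (difference -1.74, -2.5 to -0.856). For RUNX, of the other classes missing from 1 list, the missing regions stood closest to regions missing only in sgFLI1. For AP-1 they stood closest to those missing only in WT-IFN-γ (24.5 against 26.0%). The AP-1 interval of the difference from regions missing only in sgFLI1 was 1.7 to 6.29. For CTCF they stood between regions missing only in sgFLI1 and those missing only in WT.

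**Figure D4:**
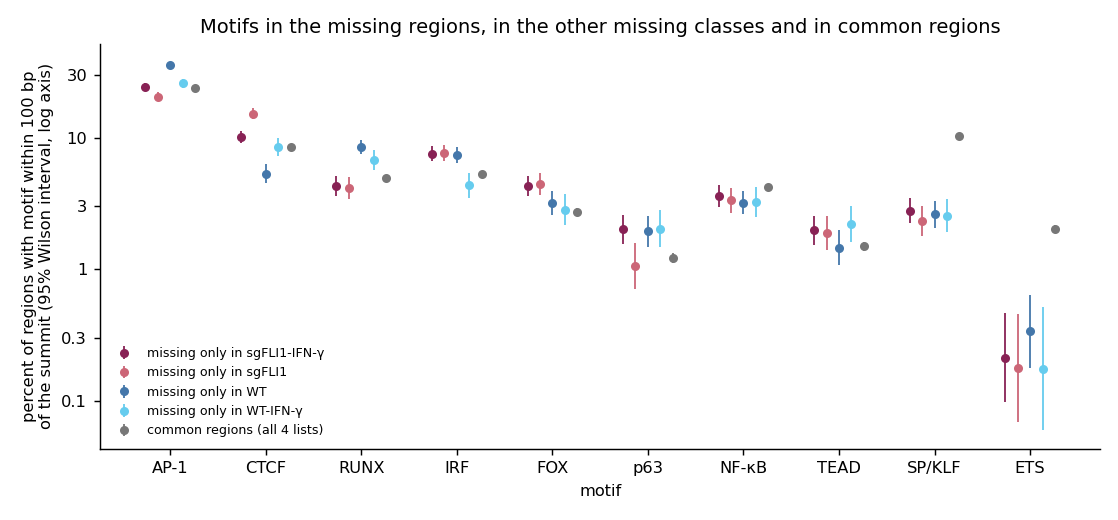
Percent of regions with a motif within 100 bp of the summit (log axis, 95% Wilson intervals) in the 4 classes missing from 1 list and in common regions. AP-1 and RUNX are highest in regions missing only in WT (35.6 and 8.55%), CTCF is highest in regions missing only in sgFLI1 (15.2%), and SP/KLF and ETS are highest in common regions (10.3 and 2.01%).

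The motif of ETS factors, the family of FLI1, was rare in the missing regions. CCGGAAGT was in 6 of them (0.211%), against 2.01% of common regions (difference -1.80, -1.98 to -1.52) and 1.01% of all merged regions. In none of the 5 classes of scaled pileup did the interval of that difference leave out 0. Away from promoters the shares were 0.189 and 0.424% (difference -0.235, -0.371 to 0.0263). The repeat GGAAGGAA was in 59 missing regions (2.08%) and in 2.41% of common regions (difference -0.335, -0.824 to 0.276). The promoter motifs GGGCGGGG (SP/KLF) and GCGCNTGCG (NRF1) were also less frequent than in common regions, at 2.78 against 10.3% and 0.317 against 3.57%. In all merged regions GGAAGGAA, SP/KLF and NRF1 were found in 2.39, 5.47 and 1.66%. Within equal scaled pileup SP/KLF was not less frequent below 1.5 (1.32 against 1.37% of common regions) or from 3 to 5 (5.19 against 5.52%), with intervals that held 0. From 2 to 3 it was more frequent (4.04 against 2.65%, difference 1.39, 0.118 to 3.13). At 5 or more, where heights were not equal, it was 8.16 against 17.6%. Away from promoters it was 1.89 against 3.81%.

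The IRF motif GAAANNGAA, bound by interferon regulatory factors, was in 215 missing regions (7.58%), in 5.32% of common regions (difference 2.26, 1.32 to 3.31) and in 7.62% of all merged regions. Within equal scaled pileup, all 5 intervals of the difference from common regions held 0. Of the 215, 82 (38.1%) had a higher scaled pileup in WT-IFN-γ than in WT, close to the 39.8% of all missing regions. TGTTTAC (FOX, 4.30 against 2.74% of common regions) and p63 (2.01 against 1.22%) were more frequent, with differences of 1.56 (0.855 to 2.39) and 0.788 (0.320 to 1.38). TEAD (ACATTCCA) was in 1.97% against 1.49% and C/EBP (ATTGCNNAA) in 3.17% against 2.53%, with intervals just above 0, and the intervals for NF-κB (3.6 against 4.2%) and GRHL (AACCNGGTT, 2 regions) held 0. In all merged regions FOX was in 3.12%, p63 in 1.52%, TEAD in 1.62%, C/EBP in 2.93%, NF-κB in 3.66% and GRHL in 0.127%. Of 15 features compared with each class (the promoter and 14 motifs), 10 had an interval without 0 against common regions, 3 against regions missing only in sgFLI1, 4 against those missing only in WT and 5 against those missing only in WT-IFN-γ. AP-1 matches all versions of TGANTCA, and no motif was masked where it overlapped another.

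By chromosome, the missing share was highest on chromosome 18 (68 of 635 regions, 10.7%, 95% interval 8.54 to 13.4%) and on X (98 of 1034, 9.48%, 7.84 to 11.4%), and lowest on chromosome 19 (4.77%). On chromosome 18, 8.70% of regions were missing only in sgFLI1, 4.71% only in WT and 3.57% only in WT-IFN-γ. The median sgFLI1 minus WT difference of common regions was -0.29 on the log2 scale on chromosome 18, the lowest of all chromosomes, and the missing share was raised for both sgFLI1 libraries and not for the WT libraries. Chromosome 16 had a like median (-0.25) and an average missing share (6.25%). There, 5.43% of regions were missing only in sgFLI1, 2.91% only in WT and 2.28% only in WT-IFN-γ. The WT and WT-IFN-γ shares of chromosome 16 were the lowest of all chromosomes. On X the median sgFLI1-IFN-γ minus sgFLI1 difference was -0.18, also the lowest of all chromosomes. In the bin of 1 to 2 Mb of X, 8 of 21 regions were missing, and all 8 had 6 repeated stretches. This bin lies in the part of X whose sequence is shared with Y. Without regions of 6 repeated stretches, the share on X was 8.73%. The bins of 1 Mb held at most 8 missing regions, and 109 of 2673 bins held more than 3.

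**Figure D5:**
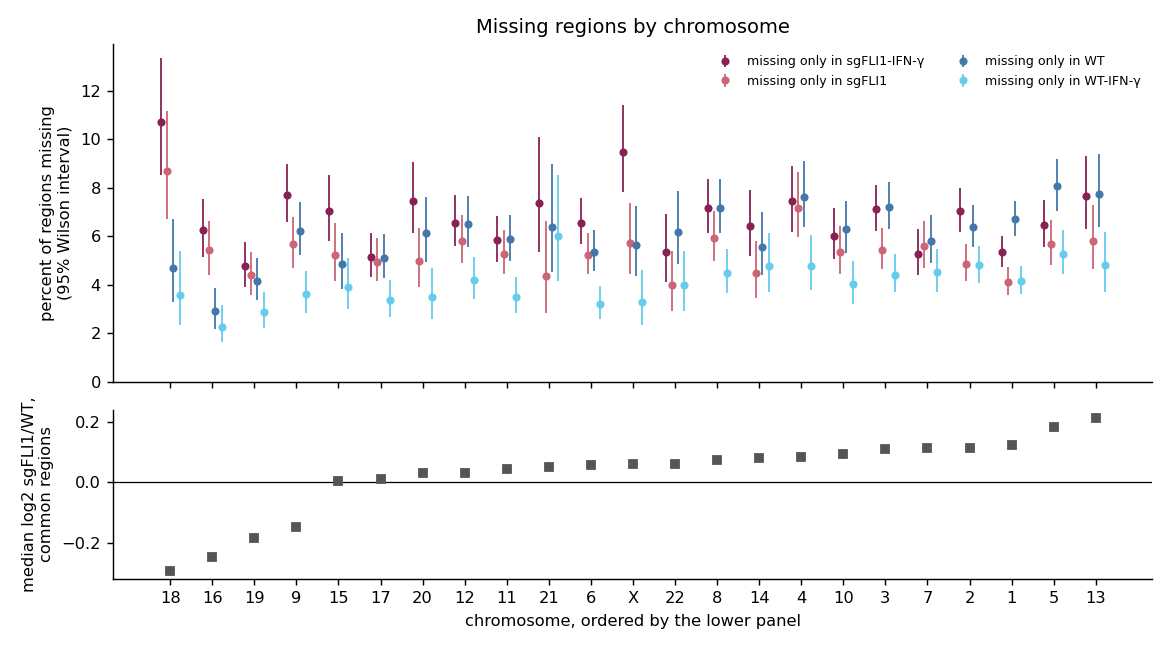
Upper panel, percent of regions missing from 1 list by chromosome (95% Wilson intervals) for the 4 libraries. Lower panel, median log2 ratio of sgFLI1 to WT scaled pileups in common regions, by which chromosomes are ordered. On chromosome 18, at the left, the ratio is lowest (-0.29) and the shares missing in sgFLI1-IFN-γ (10.7%) and sgFLI1 (8.70%) are highest.

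Genes near missing regions were described by lists chosen by function. Of 14805 protein-coding genes with an eligible region within 10 kb of a start, 847 (5.72%, 95% interval 5.36 to 6.11%) had a missing region there. All list intervals held this background, so the lists are described only. Of 76 IFN-γ-inducible genes, 4 (5.26%) had a missing region. That near IFI30, encoding a thiol reductase of antigen processing, had 32 tags in WT, 36 in WT-IFN-γ and 20 in sgFLI1 (limit 10), and lay in intron 13 of PIK3R2. That near WARS1, a tryptophanyl-tRNA synthetase gene, had 30, 32 and 20 tags (limit 12), lay in an intron of WDR25 and had a sgFLI1-IFN-γ peak 414 bp away. The other 2 were near IRF1 and TRIM22. The share of these genes was close to that of all genes.

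Epithelial genes gave 2 of 20 for squamous factors (10.0%), 2 of 27 for keratins and cornification (7.41%), 3 of 28 for epithelial-mesenchymal transition genes (10.7%) and 1 of 22 for integrins and laminins (4.55%). EHF, an epithelial ETS factor gene, had a missing region in its intron 1 with 24, 30 and 16 tags (limit 9). OVOL2, a zinc finger factor of epithelial identity, had 24, 28 and 14 tags in intron 2 (limit 9). The 2 keratin genes, KRT15 and KRT19, shared 1 region 674 bp upstream of KRT15, a keratin of basal cells, with 67, 69 and 53 tags (limit 37). CDH1, encoding E-cadherin, had 18, 25 and 15 tags in intron 2 (limit 10), and FN1, encoding fibronectin, had 12, 18 and 11 tags 5884 bp upstream (limit 6). ITGA3, an integrin subunit gene, had 23, 25 and 19 tags in intron 21 (limit 9). All but the KRT15 region had at most 30 tags in each library.

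Signalling and factor genes gave 2 of 27 for YAP/TEAD targets, 1 of 13 for AP-1 factors, 1 of 20 for ETS factors, 1 of 25 for NF-κB and cytokines and 2 of 30 for EGF receptor and MAP kinase genes. EHF, although an ETS factor gene, was counted with the squamous factors and not in the ETS list. CCN1, a secreted matrix protein gene and YAP target, had a region of 90, 85 and 70 tags 3661 bp after its start (limit 57), and WWC1, of the Hippo pathway, 13, 15 and 13 tags (limit 8). MAFK, a partner of AP-1 type factors, had 88, 88 and 59 tags in intron 1 (limit 37). NFKB2, the gene for p100, had 60, 48 and 53 tags in intron 21 (limit 23). ELF1, an ETS factor gene, had 22, 12 and 10 tags in intron 2 (limit 6). FGFR3, a growth factor receptor gene, had 40, 44 and 26 tags 4607 bp upstream of a start (limit 16) and PHLDA1 27, 29 and 22 (limit 15). Another missing region lay 61 bp after a start of FGFR3, with a lowest scaled pileup of 2.60. Among ribosomal protein genes, used as a set of steady expression, 3 of 32 (9.38%) had a missing region, of 29, 33 and 24 tags near RPL32 (limit 17) and 20, 18 and 18 tags near RPL37 (limit 12). None of 12 lysine acetyltransferase genes and none of 6 kynurenine genes did. Within 50 kb, 4 of 11 kynurenine genes (IDO1, IDO2, KMO and ACMSD) had one (36.4%, 95% interval 15.2 to 64.6%). That interval held the 18% of all genes. The other lists ran at 50 kb from 8.33% (lysine acetyltransferases) to 29% (EGF receptor and MAP kinase genes). A region near several genes, such as neighbours on a chromosome, is counted for each of them.

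At the loci the study followed, 1 missing region lay upstream of IDO1, whose enzyme starts the breakdown of tryptophan to kynurenine. It spanned chr8:39892006-39892746, with its summit 10107 bp before the annotated gene (chr8:39902275-39928790). By the measure used for the other regions, the summit lay 21723 bp upstream of the nearest protein-coding start, that of IDO1. Its summit pileup was 19 tags in untreated WT cells (exact Poisson 95% interval 11.4 to 29.7), 34 tags in WT-IFN-γ (23.6 to 47.5) and 14 tags in sgFLI1 (7.65 to 23.5). At most 6 tags would have stayed unlisted in sgFLI1-IFN-γ. Scaled by tag density, it was 2.36 in WT, 3.85 in WT-IFN-γ and 2.02 in sgFLI1. The intervals of the 2 WT libraries overlapped. The sgFLI1 pileup lay above the limit by the rule, which asks for a listed sgFLI1 peak, so that difference was not tested. It held a CTCF motif within 100 bp of the summit, and it was the single eligible region that reached into IDO1 or the 10 kb before it, which it did with its edge and not with its summit. FLI1 itself had 1 missing region of 3 eligible, in intron 5 at chr11:128802493-128803410, with 9 tags in WT, 11 in WT-IFN-γ and 15 in sgFLI1 (limit 6). CREBBP, encoding the acetyltransferase CBP, had 0 of 3 and KAT5 had 0 of 2.

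The line between missing and common was thin at its edge. The 5 missing regions with the lowest scaled pileup had 9 to 17 tags in WT without treatment, 8 with IFN-γ and 9 to 26 in sgFLI1. The 5 common regions with the lowest sgFLI1-IFN-γ −log10 q (1.43 each) had 9 to 24 tags in WT without treatment, 18 to 31 with IFN-γ and 11 to 15 in sgFLI1, with 7 tags in sgFLI1-IFN-γ.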

How the data were processed

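ATAC-seq had been run on 4 libraries of HK1 cells, 1 per group. Per the study's methods and the submitters' processing notes, the authors used Trimmomatic 0.3 for trimming and Bowtie2 2.3.4.1 for alignment to GRCh38, removed alignments of mapping quality under 30 and duplicates, and called peaks with MACS2 2.1.2 at a q-value of 0.05. An IDR filter between replicates is also named in the methods. Whether a deposited list precedes it, or pools replicates, is not given in the sources used here, although the peak numbers in all 4 lists ran without a gap.

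The deposited lists give a score, which is 10 times −log10 q as a whole number, a fold enrichment, which is the ratio of summit pileup to local background, and −log10 values of p and q at the summit. The score was not used. From the deposited fold and −log10 p, the whole number of tags at each summit was recovered for 100% of peaks (tolerance 0.01 in −log10 p). Library totals are not in these lists, so tag density was taken from the lowest background of each list.

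Peaks were merged and classed by list. No test between groups was possible with 1 library per group. Shares have 95% Wilson intervals, pileups exact Poisson intervals and differences of shares Newcombe intervals. Genes were taken from GENCODE 44 and sequence from GRCh38. The regions and lists were chosen with earlier results of these data known. Named were the 8 regions of greatest scaled pileup, the 6 such promoter regions, up to 2 per gene list, those at IDO1, FLI1, CREBBP and KAT5 and the 5 on each side of the threshold. The ranking by height over the limit and the copy counts were added after the values were seen. Alternatives were stricter q limits, other windows and other start sites. Scripts used pysam 0.24.0, Biopython 1.88, scipy 1.17.1, pandas 2.3.3, numpy 2.4.6 and matplotlib 3.10.9 under Python 3.11.15, and were tested on simulated data.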

Additional observations from a re-analysis of the deposited data

Results flagged for a closer look

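In WT cells, 1129 of the 2837 missing regions (39.8%) had a higher scaled pileup with IFN-γ than without, close to the 40.2% of common regions. They were listed because they moved up in WT while having no peak in the treated knockout, but the knockout side is fixed by the rule that chose the regions, most missing regions were not higher with IFN-γ in WT, and the difference between genotypes was not tested.

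The region upstream of IDO1 had a summit pileup of 34 tags in WT-IFN-γ against 19 in WT, with overlapping counting intervals, and 14 tags in sgFLI1. It was listed because it was higher with IFN-γ in WT. Its lack of a peak in sgFLI1-IFN-γ is the rule itself, so the difference between genotypes was not tested.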

How the results depend on the processing

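Asking for a −log10 q of at least 5 in the 3 lists that held the region left 1313 missing regions (3.42% of eligible regions), and of at least 10 left 299 (1.03%). At 5, the missing share was 6.07% on chromosome 18 and 2.58% on chromosome 19. The promoter share was 11.8% within 3 kb of a start and 13.9% with the starts of all genes. Genes with a missing region nearby were 2.59% within 3 kb and 18% within 50 kb, and of IFN-γ-inducible genes 1.43% and 16.3%. With height measured over the listing limit, which was added after the data were seen, the missing share of the highest class was 0.173% in place of 0.505%. The C/EBP difference from common regions turned from 0.643 to -0.127 percentage points within 50 bp of the summit. The interval for TEAD held 0 at a −log10 q of 5 (0.368), and that for NF-κB left it out within 250 bp (-1.96). The cause of these changes was not tested, other than that the stricter q limits and other windows keep fewer or more regions by construction. Differences whose intervals held 0 also changed sign, for AP-1 (0.609 to -0.089) and NF-κB (-0.605 to 0.0721) within 50 bp, RUNX (-0.633 to 0.0319) within 250 bp and the GGAA repeat (-0.335 to 0.125) at a −log10 q of 5.

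No paired analysis was possible because each group had 1 library, and no library was left out for the same reason. A peak list holds no signal below its threshold, so a region without a peak has an upper limit and no value. Depth limits what can be said of the weak regions, where 32.4% of those below 1.5 in scaled pileup were missing.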
